A study of Mus musculus with 16 samples.

Results

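Fibrillar collagens are the collagens that assemble into the cross-striated fibrils that carry load in tendon. The 9 genes described here encode the chains of types I, II, III, V and XI: Col1a1, Col1a2, Col2a1, Col3a1, Col5a1, Col5a2, Col5a3, Col11a1 and Col11a2. They were taken by symbol from the 25719 genes listed for each library, and all 9 passed the filter on low counts that left 14803 genes to test. The lowest count of any of them in any library was 272, so none was limited by depth.

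The 16 RNA-seq libraries came from fascicles of the mouse tail tendon, fine strands that were dissected, frozen and ground whole. Of these, 8 are labelled wild type and 8 knockout, the latter being ScxCre;Vhlf/f, in which Cre driven by the tendon gene Scx recombines a floxed Vhl gene. VHL marks the hypoxia-inducible factors for breakdown when oxygen is present. Age, sex, strain and the alleles carried by the wild type mice are not given in the sources used here, nor is whether each library came from a separate animal, so p-values measure the spread between these libraries. Cre acts only in cells with a history of Scx expression, while the RNA came from all cells of the strand. In such bulk samples, fewer cells of a type and less RNA per cell cannot be told apart.

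Type I collagen, built from a pair of α1(I) chains and a single α2(I) chain, is the bulk of a tendon fibril. Type III is a homotrimer of the Col3a1 product, shares fibrils with type I and is abundant in young, healing and distensible tissue. Types V and XI are minor collagens that sit inside fibrils, where they start fibril assembly and limit fibril width. Their chains can combine with each other, and type XI is best known from cartilage, where its α3 chain is a product of Col2a1. Type II is the main collagen of cartilage.

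Each knockout library held 10488355 to 18753254 counts and each wild type library 10792900 to 16379401. Vhl was measured at 7.51 to 10.9 CPM (counts scaled to library size, here with the trimmed mean of M-values, TMM) in the knockout libraries and at 14.1 to 25.8 CPM in wild type libraries, and no library went against its label. Vhl thus had a log2 fold change of -1.13 (SE 0.113, edgeR adjusted p = 9.64e-08). The list of tenocyte markers summed to between 11580 and 16790 CPM in knockout and between 18710 and 28770 CPM in wild type libraries, and all 8 of its genes were detected in both genotypes. Skeletal muscle markers summed to between 154 and 8839 CPM in the knockout and between 53.3 and 4495 CPM in the wild type, overlapping widely. Wild type library 3 stood apart in type I collagen, and chains that crossed the threshold when it was left out are given with and without it.

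The chains differed between the genotypes in both directions. Col3a1, Col5a2 and Col5a1 were higher in the knockout and Col11a2, Col1a2 and Col1a1 were lower, while Col5a3, Col2a1 and Col11a1 did not pass the threshold. An adjusted p under 0.05 in edgeR's quasi-likelihood test over all 14803 genes was the threshold. With 6 of 9 chains past it (66.7%), the share stood beside 48.3% of all genes tested (25.6% of all tested genes were higher and 22.7% lower in the knockout). Groups of 8 libraries did not overlap for 3 of the 9 chains, 2 higher and 1 lower, against 19.4% of all genes (10.8% higher and 8.61% lower). The 9 chains had a median log2 fold change of -0.63, against 0.02 for all tested genes. Without wild type library 3 all 9 chains passed, 3 higher and 6 lower. In that fit 7062 genes passed (52.3% of these higher), against 7151 with all libraries. Col2a1, Col5a3 and Col11a1 passed only narrowly there, with edgeR adjusted p of 0.0427, 0.0495 and 0.0271.

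**Figure D1:**
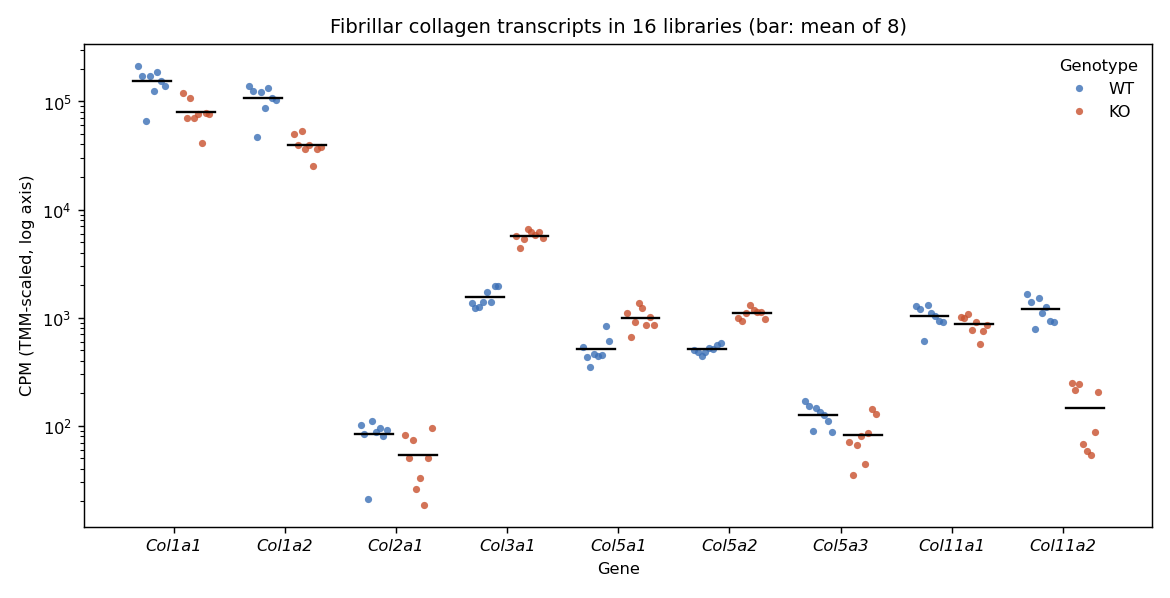
Expression of the 9 fibrillar collagen genes in each of 8 wild type (WT) and 8 knockout (KO) libraries, as TMM-scaled CPM on a log axis, with a bar at the mean of each group. The groups are fully separate for Col3a1, Col5a2 and Col11a2, and the isolated low wild type point of Col1a1, Col1a2 and Col2a1 is library 3.

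**Figure D2:**
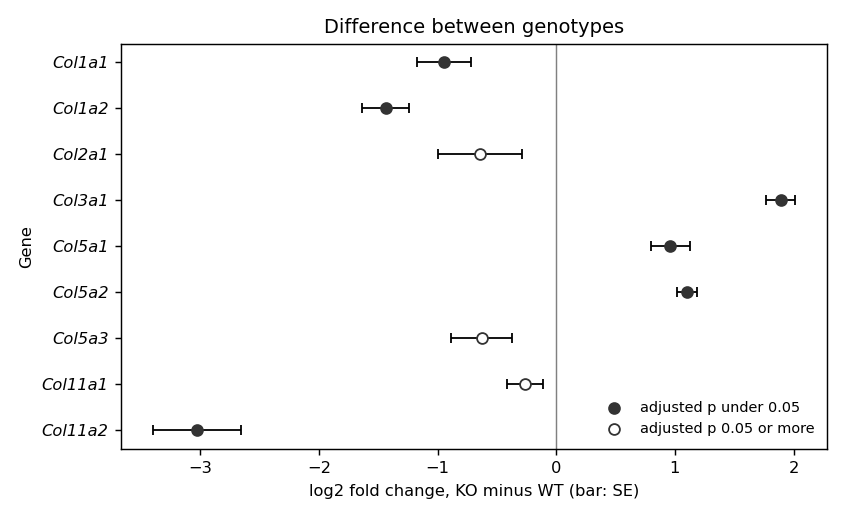
Log2 fold change of each gene, knockout minus wild type, with its standard error. Filled points had an adjusted p under 0.05. Col3a1 (1.89) and Col11a2 (-3.03) lie at the ends of the range.

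Levels were compared between chains after division by the length of the longest protein-coding transcript of each gene. In the wild type the order was Col1a1, Col1a2, Col3a1, Col11a2, Col11a1, Col5a2, Col5a1, Col5a3 and Col2a1, from 25884 ± 7637 CPM per kilobase for Col1a1 to 16.5 ± 5.34 for Col2a1 (SD, n = 8). Col3a1 stood at 277 ± 54.3 and Col11a2 at 199 ± 52.3 CPM per kilobase, and Col3a1 was above Col11a2 in only 5 of 8 libraries, so these neighbours were not separated. Each of the other neighbours kept its order in at least 7 of 8 wild type libraries. In the knockout the order became Col1a1, Col1a2, Col3a1, Col5a2, Col5a1, Col11a1, Col11a2, Col5a3 and Col2a1. Col11a2 dropped from the fourth to the seventh place, at 24.4 ± 14.4 CPM per kilobase. Col5a1 (119 ± 26.9 CPM per kilobase) was above Col11a1 (114 ± 22.1 CPM per kilobase) in 4 of 8 knockout libraries, Col11a2 above Col5a3 (13.4 ± 6.16 CPM per kilobase) in 5 and Col5a3 above Col2a1 (10.6 ± 5.45 CPM per kilobase) in 5. The order in both genotypes was the same when coding length was used, where Col3a1 exceeded Col11a2 in 7 of 8 wild type libraries.

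Type I collagen made up most of the fibrillar collagen transcripts in every library. Summed over the 9 genes and counted per length, Col1a1 and Col1a2 accounted for 98.2% ± 0.477 of transcripts in wild type and 93.0% ± 2.00 in knockout libraries (SD, n = 8). The remainder was 1.34% to 2.78% in wild type and 4.87% to 11.0% in knockout libraries, with no overlap. Col3a1 alone was 0.652% ± 0.261 in wild type and 4.91% ± 1.59 in knockout libraries. Type V chains together were 0.368% ± 0.119 of the pool in wild type and 1.42% ± 0.439 in knockout libraries, and the type XI chains were 0.742% ± 0.151 and 0.623% ± 0.0937. These shares sum to a fixed total, so a fall in type I raises every other share, and they are given as a description without a test. Of all counts in a library, the 9 genes took 23.5% ± 5.38 in wild type and 14.2% ± 3.30 in knockout libraries.

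**Figure D3:**
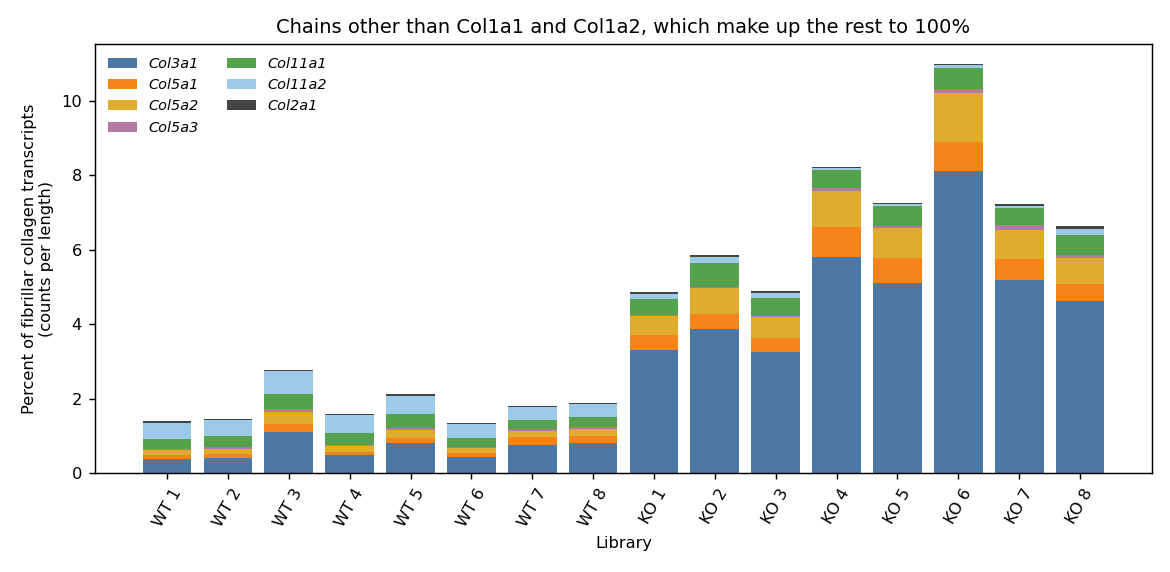
Percent of fibrillar collagen transcripts, counted per transcript length, that came from chains other than Col1a1 and Col1a2, stacked for each library. The knockout bars reach 4.87% to 11.0% and the wild type bars 1.34% to 2.78%, and Col3a1 is the largest block in every knockout library.

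Col1a1, on chromosome 11, encodes the α1 chain of type I collagen. It was measured at 65559 CPM in the lowest, 162740 at the median and 213060 in the highest wild type library, and at 40864, 75908 and 118910 CPM in the knockout. Wild type library 3 was the lowest of its group, and the other 7 wild type libraries lay above every knockout library. The means were 153490 ± 45290 and 79643 ± 24140 CPM (SD, n = 8), a log2 fold change of -0.95 (SE 0.225, edgeR adjusted p = 0.00170).

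Col1a2, on chromosome 6, encodes the α2 chain and fell further than Col1a1. Its lowest, median and highest values were 46640, 114750 and 139900 CPM in wild type and 25168, 38857 and 53777 CPM in knockout libraries. Again 7 wild type libraries lay above every knockout library, and 6 knockout libraries lay below every wild type library. It differed by a log2 fold change of -1.44 (SE 0.199, edgeR adjusted p = 6.01e-06). With libraries scaled to total counts the log2 fold changes of Col1a1 and Col1a2 were -0.62 and -1.115 (edgeR adjusted p = 0.00735 and 7.06e-06), the smallest of any setting. With the skeletal muscle score as a covariate they were -0.80 and -1.29, and both still passed. Without wild type library 3 they were -1.07 and -1.56.

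The α1 to α2 balance of type I collagen shifted within libraries. Counted per length, there were 1.28 ± 0.0468 Col1a1 transcripts for each Col1a2 transcript in the wild type, from 1.22 to 1.37, and 1.78 ± 0.214 in the knockout, from 1.46 to 2.16 (SD, n = 8). All 8 knockout libraries lay above all 8 wild type libraries, and the wild type values were tightly grouped, library 3 included at 1.27. The difference in mean log2 ratio was 0.47 (SE 0.0636, two-sided exact permutation test, p = 0.000155, adjusted p = 0.000233 over 9 ratios), and this p is the smallest that 8 against 8 libraries can give. With coding length in place of transcript length the mean ratios were 1.34 and 1.86. A ratio inside a library does not depend on how the library is scaled.

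Col3a1, on chromosome 1, had the largest increase of the 9 genes. Its lowest, median and highest values were 1240, 1400 and 1973 CPM in wild type and 4394, 5763 and 6561 CPM in knockout libraries. The groups were fully separate, and the nearest values were those of knockout library 2 (4394 CPM) and wild type library 8 (1973 CPM). Its log2 fold change was 1.89 (SE 0.122, edgeR adjusted p = 1.72e-10), which is a mean 3.72 times higher in the knockout.

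Col3a1 was also set against type I collagen inside each library. The per-length ratio of Col3a1 to Col1a1 was 0.0119 ± 0.00489 in wild type and 0.0841 ± 0.0327 in knockout libraries (SD, n = 8). The highest wild type value was that of library 3, at 0.0205, and the lowest knockout value that of library 1, at 0.0506. The mean log2 ratio differed by 2.84 (SE 0.276, two-sided exact permutation test, p = 0.000155, adjusted p = 0.000233), or 7.18 times. Knockout library 6, with the least Col1a1 of all libraries, had the highest ratio, 0.153.

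RefSeq start regions were at hand for 6 of the 9 genes (Col1a2, Col3a1, Col5a1, Col5a3, Col11a1 and Col11a2, on GRCm38.p6). The 250 bases upstream of the annotated start are shown for 4 of them that passed the threshold, a pair that rose and a pair that fell: Col3a1 (chr1:45311288-45311537, plus strand), Col5a1 (chr2:27886175-27886424, plus strand), Col1a2 (chr6:4505368-4505617, plus strand) and Col11a2 (chr17:34038888-34039137, plus strand). Sequences run 5′ to 3′ and capitals mark matches, on either strand, to TATAAA (the TATA box), CCAAT (bound by NF-Y), GGGCGG (a GC box, bound by Sp1), ACGTG (within the hypoxia response element) and CANNTG (the E-box, bound by Scx and other helix-loop-helix factors). The sequence CACGTG would match both of the last motifs.
Col3a1: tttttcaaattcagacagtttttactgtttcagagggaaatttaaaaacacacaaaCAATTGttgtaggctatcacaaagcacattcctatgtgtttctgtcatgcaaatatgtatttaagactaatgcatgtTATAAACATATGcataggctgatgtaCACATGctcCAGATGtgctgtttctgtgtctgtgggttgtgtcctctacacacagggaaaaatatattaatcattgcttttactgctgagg
Col5a1: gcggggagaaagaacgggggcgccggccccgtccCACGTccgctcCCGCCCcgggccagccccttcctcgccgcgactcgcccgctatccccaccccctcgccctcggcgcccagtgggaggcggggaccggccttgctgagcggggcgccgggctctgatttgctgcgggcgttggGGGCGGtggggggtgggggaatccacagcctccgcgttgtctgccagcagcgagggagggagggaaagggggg
Col1a2: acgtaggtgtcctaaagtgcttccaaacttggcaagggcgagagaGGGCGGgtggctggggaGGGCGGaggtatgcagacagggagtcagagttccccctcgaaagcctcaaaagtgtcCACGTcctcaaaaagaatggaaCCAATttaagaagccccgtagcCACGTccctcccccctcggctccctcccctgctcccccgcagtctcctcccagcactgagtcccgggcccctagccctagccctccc
Col11a2: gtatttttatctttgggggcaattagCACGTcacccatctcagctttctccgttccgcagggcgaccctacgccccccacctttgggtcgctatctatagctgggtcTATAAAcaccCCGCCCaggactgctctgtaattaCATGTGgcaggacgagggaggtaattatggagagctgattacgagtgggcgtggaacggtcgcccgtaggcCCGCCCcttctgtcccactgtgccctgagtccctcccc

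The upstream regions differed in composition and in the motifs they held. That of Col3a1 was 35.2% G and C, against 62.0% for Col1a2, 76.4% for Col5a1 and 57.6% for Col11a2. It held 1 TATA box and 4 E-boxes but none of the other motifs. Col1a2 held 1 CCAAT motif, 2 GC boxes and 2 copies of ACGTG, the latter starting 131 and 87 bases before the annotated start. ACGTG is called the hypoxia core motif here, and no other form of it was searched. Col5a1 held 2 GC boxes and 1 hypoxia core motif, and Col11a2 held 1 TATA box, 2 GC boxes, 1 hypoxia core motif and 1 E-box. Of 32851 start regions of the same length in the table, 12.4% held the TATA box, 33.8% the CCAAT motif, 32.7% the GC box, 16.6% the hypoxia core motif and 66.2% the E-box. Among the regions shown, the hypoxia core letters were present upstream of both a gene that rose and genes that fell. They were absent upstream of Col3a1, which rose, and of Col5a3 and Col11a1, which did not pass the threshold. A match is a description of the letters only.

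Col5a2, which encodes the α2 chain of type V collagen, lies on chromosome 1 as the nearest protein-coding neighbour of Col3a1, 24615 bases away in GENCODE M21 and on the opposite strand. Its lowest, median and highest values were 444, 511 and 588 CPM in wild type and 935, 1123 and 1311 CPM in knockout libraries. It varied least of the 9 genes among libraries of a genotype, with a coefficient of variation of 9.01% in wild type and 11.4% in knockout libraries. The log2 fold change was 1.10 (SE 0.0836, edgeR adjusted p = 1.93e-09), with no overlap.

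Col5a1, on chromosome 2, encodes the α1 chain that type V collagen cannot form without. It was measured at 353, 458 and 832 CPM in the lowest, median and highest wild type library and at 659, 970 and 1360 CPM in the knockout. Wild type library 7, the highest of its group, lay above knockout library 2, and the other 7 knockout libraries were above all wild type libraries. It differed by a log2 fold change of 0.96 (SE 0.166, edgeR adjusted p = 8.05e-05).

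Both main chains of type V rose. The per-length ratio of Col5a1 to Col5a2 was 0.784 ± 0.172 in wild type and 0.717 ± 0.115 in knockout libraries (SD, n = 8). The mean log2 ratio differed by -0.12 (SE 0.130, two-sided exact permutation test, p = 0.382, adjusted p = 0.382), within the spread between libraries. Col3a1 rose beyond its neighbour: the ratio of Col3a1 to Col5a2 was 3.56 ± 0.418 in wild type and 6.22 ± 0.438 in knockout libraries, without overlap (log2 difference 0.81, SE 0.0692, exact permutation test, p = 0.000155, adjusted p = 0.000233). Against Col1a1, the ratio of Col5a1 went from 0.00254 ± 0.000915 to 0.00955 ± 0.00340 (log2 difference 1.91, exact permutation test, p = 0.000155, n = 8, adjusted p = 0.000233).

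Col5a3, on chromosome 9, encodes the α3 chain of type V collagen, which has a narrower distribution among tissues. Its values tended lower in the knockout, unlike those of the other type V chains. Its lowest, median and highest values were 87.5, 130 and 168 CPM in wild type and 34.8, 75.5 and 142 CPM in knockout libraries. Of the 8 knockout libraries, 6 lay below every wild type library, and libraries 7 and 8 reached 142 and 130 CPM. Its log2 fold change was -0.63 (SE 0.257, edgeR adjusted p = 0.0556), just outside the threshold. It passed at -0.93 with the skeletal muscle score as a covariate (edgeR adjusted p = 0.00935) and without knockout library 7 at -0.79 (edgeR adjusted p = 0.0137). It also passed without knockout library 8 (-0.75), wild type library 3 (-0.69) or wild type library 8 (-0.69). Leaving out knockout 6, 7 and 8 and wild type 5 together gave -1.08, again past the threshold. So did 2 other tests, the DESeq2 Wald test (-0.64, adjusted p = 0.0321) and limma-voom with quality weights (-0.71, adjusted p = 0.0188). In 20 of 28 settings it stayed outside the threshold, among them total counts, at -0.30 (edgeR adjusted p = 0.295). The ratio of Col5a3 to Col5a1 was 0.360 ± 0.112 in wild type and 0.116 ± 0.0572 in knockout libraries (SD, n = 8; log2 difference -1.71, SE 0.314, exact permutation test, p = 0.000777, adjusted p = 0.000874), with 6 knockout libraries below all wild type libraries.

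Col11a2, on chromosome 17, encodes the α2 chain of type XI collagen and had the largest decrease. Its lowest, median and highest values were 787, 1185 and 1673 CPM in wild type and 54.04, 146 and 248 CPM in knockout libraries. The groups were fully separate, and knockout libraries formed 2 clusters: libraries 1, 2, 3 and 8 at 204 to 248 CPM and libraries 4 to 7 at 54.04 to 87.9 CPM. The wild type mean was 8.14 times the knockout mean, and the log2 fold change was -3.03 (SE 0.370, edgeR adjusted p = 4.57e-06). No exon of another measured gene overlaps those of any of the 9 genes in GENCODE M21.

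Col11a1, on chromosome 3, encodes the α1 chain of the same collagen. It was measured at 611, 1064 and 1307 CPM in the lowest, median and highest wild type library and at 570, 892 and 1078 CPM in the knockout. The ranges overlapped for most libraries, with 4 wild type libraries above all knockout libraries. The log2 fold change was -0.26 (SE 0.148, edgeR adjusted p = 0.152). Without wild type library 3 it was -0.35 and passed (edgeR adjusted p = 0.0271), and with libraries scaled to total counts it was 0.05.

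The balance of the type XI chains differed between the genotypes. The per-length ratio of Col11a1 to Col11a2 was 0.696 ± 0.0764 in the wild type, between 0.606 and 0.786, and 6.26 ± 3.39 in the knockout, between 3.25 and 12.4 (SD, n = 8). The lowest knockout value was above every wild type value. The mean log2 ratio differed by 2.99 (SE 0.278, two-sided exact permutation test, p = 0.000155, adjusted p = 0.000233), or 7.97 times. Against the α1 chain of type V, with which its product can share a molecule, Col11a1 went from 2.35 ± 0.685 to 1.01 ± 0.345 transcripts per Col5a1 transcript (log2 difference -1.23, SE 0.237, exact permutation test, p = 0.000777, n = 8, adjusted p = 0.000874).

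**Figure D4:**
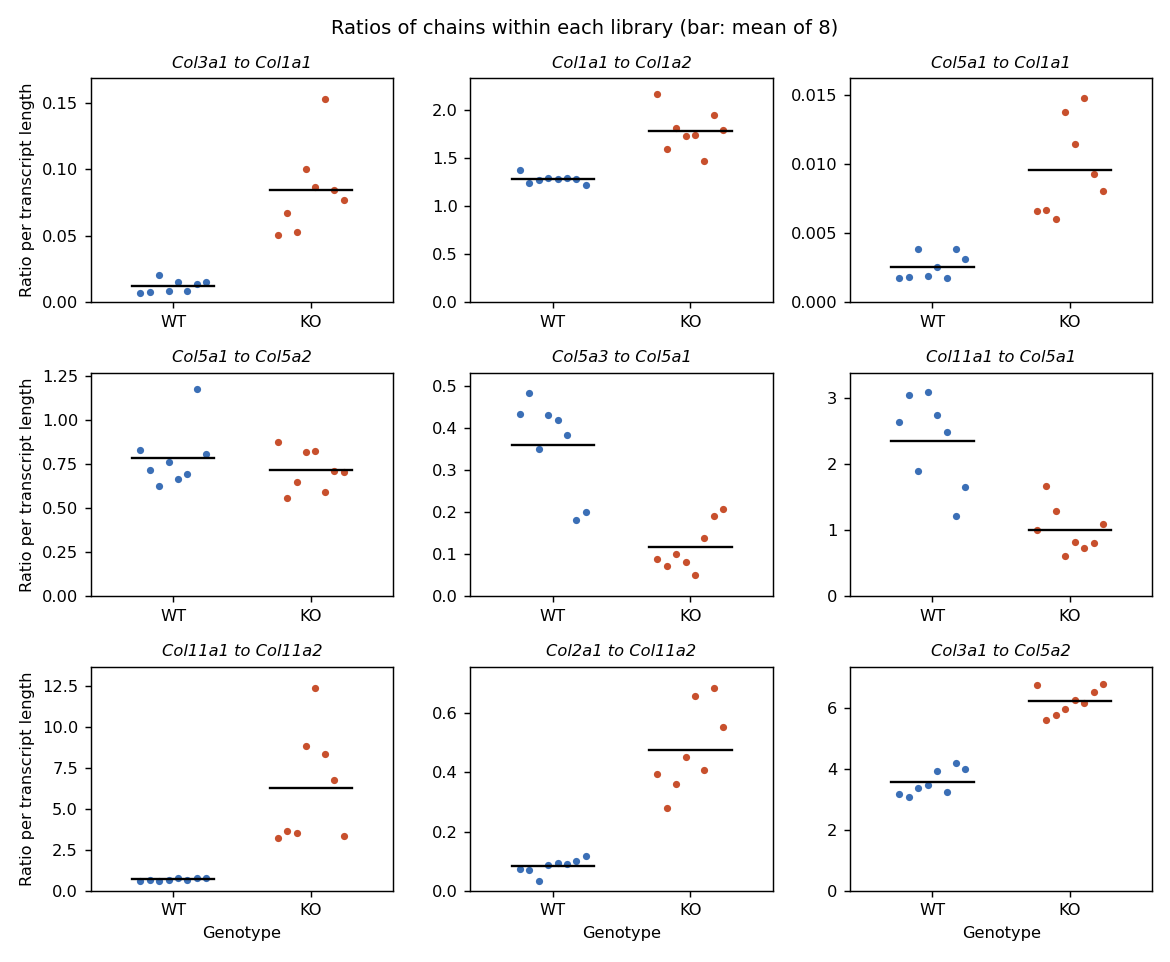
Ratio of the first to the second gene in each library, counted per transcript length, for 8 wild type (WT) and 8 knockout (KO) libraries, with a bar at the mean. The genotypes do not overlap for 6 of the 9 ratios, among them Col3a1 to Col1a1, Col1a1 to Col1a2 and Col11a1 to Col11a2, and overlap almost fully for Col5a1 to Col5a2. Ratios share genes with each other and with the fold changes, so they are not independent of these. No share over other pairs of genes is given.

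Col2a1, on chromosome 15, was the least abundant chain per length in both genotypes. Its lowest, median and highest values were 21.2, 89.1 and 111 CPM in wild type and 18.6, 50.9 and 95.0 CPM in knockout libraries. Wild type library 3, at 21.2 CPM, lay far below the other 7, which began at 80.5 CPM. It differed by a log2 fold change of -0.64 (SE 0.357, edgeR adjusted p = 0.152), and without that library it was -0.80 and passed (edgeR adjusted p = 0.0427). The ratio of Col2a1 to Col11a2 was 0.0830 ± 0.0257 in wild type and 0.475 ± 0.145 in knockout libraries, without overlap (log2 difference 2.54, SE 0.257, exact permutation test, p = 0.000155, n = 8, adjusted p = 0.000233).

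Markers of cartilage, the tissue in which types II and XI are most abundant, moved both ways beside these genes. Of 13 listed, 9 were tested, 3 were higher and 4 lower in the knockout, or 4 and 3 with total counts. Beside the counts of this and the other marker lists stand 25.6% of all tested genes higher and 22.7% lower. The cartilage list summed to 89.6 to 185 CPM in the knockout and 48.5 to 58.5 CPM in the wild type, and Matn1 was at or under 3 counts in every library. Acan, the large cartilage proteoglycan, Hapln1, its link protein, and Sox9, the transcription factor of cartilage, rose by 3.34, 3.32 and 2.34 on the log2 scale. Matn3, a cartilage matrix protein, fell by 4.02, Cytl1 by 2.48, while Col9a3, a chain of the type IX collagen that coats cartilage fibrils, had a log2 fold change of -1.39, with exons that overlap Tcfl5. The part of such cells in the results for Col2a1, Col11a1 and Col11a2 was not tested.

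Markers of other cells that make type III and V collagen were also followed. Loose connective tissue fibroblast markers summed to 1303 to 1958 CPM in knockout and 1011 to 1923 CPM in wild type libraries. Of 8 tested, 3 were higher (Cd34 at 0.68, Dpp4 at 0.65 and Mfap5 at 0.48 on the log2 scale) and 1 lower (Clec3b at -0.69, which with total counts was -0.39 and did not pass). Mural cell markers, of the cells around small vessels, summed to 329 to 1488 CPM in knockout and 354 to 474 CPM in wild type libraries, with 4 of 7 tested genes higher, led by Rgs5 (6.11), Notch3 (4.22) and Myh11 (3.83), and Cspg4 lower at -0.27, which was 0.03 with total counts. Endothelial markers summed to 38.2 to 499 CPM and 30.6 to 50.2 CPM, with 5 of 7 tested genes higher, led by Pecam1 (6.11), Cdh5 (3.62) and Egfl7 (3.52), whose exons overlap Agpat2 and Gm20532. With total counts the numbers higher and lower were 4 and 0 for the fibroblast, 5 and 0 for the mural and 6 and 0 for the endothelial list. The part of these cells in the results for Col3a1, Col5a1 and Col5a2 was not tested. Without the 4 libraries with the highest muscle scores (knockout 6, 7 and 8 and wild type 5), Col3a1 differed by 1.90 and Col11a2 by -2.86 on the log2 scale.

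Further marker lists were summed in the same way. Bone markers were at 29.4 to 150 CPM in the knockout and 47.8 to 144 CPM in the wild type, with 2 of 7 tested and Phex lower at -0.75. Of 14 muscle markers, 1 passed with TMM, Myh2 (2.87), and 3 passed with total counts, all higher. Erythroid markers summed to 77.3 to 560 CPM and 15.1 to 50.7 CPM, and all 5 tested were higher, led by Hbb-bt (3.78), Hba-a2 (3.65) and Hbb-bs (3.63), genes with near-identical copies whose reads could be split. Macrophage markers were higher for 2 of 7, Lyz2 and Adgre1, both at 0.41, and for 6 of 7 with total counts. Schwann cell markers summed to 283 to 530 CPM in the knockout and 409 to 473 CPM in the wild type. Of 7 listed, 5 were tested and only S100b was higher (0.88). Adipocyte markers summed to 1.36 to 59.3 CPM and 0.676 to 2.19 CPM. Only 2 of 6 were tested, Fabp4 (5.27) and Pparg (2.20), both higher. Of 7 keratinocyte markers 3 were tested, and Dsp (-1.01, with exons that overlap Gm10129) and Krt10 (-0.35) were lower. Krt5, Krt14 and Krt1 were at or under 3 counts in every library. Among the tenocyte markers Kera, Fmod and Tnmd (-0.91) were among 4 that fell, and Comp (0.39) was the 1 that rose. With total counts Phex and Krt10 no longer passed, while 2 tenocyte markers and 1 keratinocyte marker were higher.

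Several pairs of chains varied together among libraries of a genotype. Over 7 pairs in each genotype, 7 of 14 correlations of log2 CPM had an adjusted p under 0.05 by Pearson's r and 1 of these, Col1a1 with Col1a2 in the wild type, also by Spearman's rho, or 5 by Pearson's r with total counts (n = 8 each, two-sided exact permutation tests over all pairings). Col1a1 and Col1a2 had r = 0.995 in the wild type (exact permutation p = 4.96e-05, adjusted p = 0.000694; rho = 0.976, p = 0.000397, adjusted p = 0.00556) and r = 0.979 without the 2 libraries farthest from the median. In the knockout they had r = 0.963 (exact permutation p = 0.00506, adjusted p = 0.0177; rho = 0.571, p = 0.151, adjusted p = 0.264) and r = 0.910 without the 2 farthest.

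Col3a1 and Col5a2, the neighbours on chromosome 1, had r = 0.900 in the wild type (exact permutation p = 0.00186, adjusted p = 0.0130; rho = 0.881, p = 0.00724, adjusted p = 0.05) and r = 0.825 in the knockout (exact permutation p = 0.00841, adjusted p = 0.0196; rho = 0.857, p = 0.0107, adjusted p = 0.05). By rho both stood at the threshold and did not pass it. Without the 2 farthest libraries the r values were 0.706 and 0.648. Col5a1 and Col5a2 had r = 0.802 in the wild type (exact permutation p = 0.0165, adjusted p = 0.0330; rho = 0.690, p = 0.0694, adjusted p = 0.139), which was 0.715 without the 2 farthest, and 0.754 in the knockout (exact permutation p = 0.0297, adjusted p = 0.0520; rho = 0.690, p = 0.0694, adjusted p = 0.139), which was 0.293 without them. With total counts the wild type value was 0.626 and did not pass.

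No relation between type I and type III transcripts passed the threshold. Col1a1 and Col3a1 had r = 0.0322 in the wild type (exact permutation p = 0.950, adjusted p = 0.950; rho = -0.190, p = 0.665, adjusted p = 0.846) and r = -0.109 in the knockout (exact permutation p = 0.790, adjusted p = 0.917; rho = -0.0952, p = 0.840, adjusted p = 0.977). Without the 2 farthest libraries they were -0.781 and -0.0456, so the wild type value rests on those libraries. Col5a1 with Col1a1 and Col11a1 with Col5a1 did not pass in either genotype either, with r between -0.0801 and 0.417. These values rest on few libraries: without the 2 farthest, r for Col5a1 and Col1a1 was 0.916 in wild type and 0.418 in knockout libraries, and for Col11a1 and Col5a1 it was -0.619 and -0.427. For Col2a1 and Col11a2, r was 0.682 in the wild type (exact permutation p = 0.00786, adjusted p = 0.0196; rho = 0.738, p = 0.0458, adjusted p = 0.128), 0.575 without the 2 farthest and 0.501 with total counts, where it did not pass. In the knockout, where Col11a2 formed 2 clusters of 4 libraries, no r is given for the pair, although it is 1 of the 7.

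**Figure D5:**
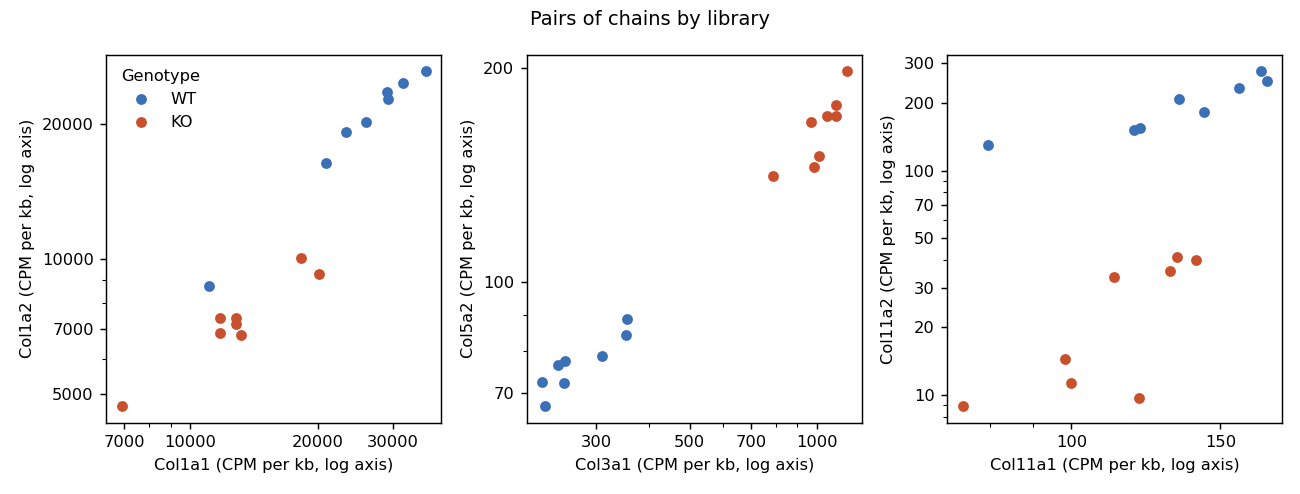
Levels of 3 pairs of chains by library, in CPM per kilobase of transcript on log axes, for 8 wild type (WT) and 8 knockout (KO) libraries. Knockout points lie below the line of wild type points for Col1a2 against Col1a1, and far below it for Col11a2 against Col11a1, while Col5a2 and Col3a1 rise together.

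The genes most like each of 4 chains were ranked among 10467 others by the Pearson r of log2 CPM after subtraction of the genotype mean, over 16 libraries, as a description. Col1a1 was nearest to Col1a2 (0.973), then Col16a1 (0.939), a fibril-associated collagen, Creb3l1 (0.927), a transcription factor of the endoplasmic reticulum that activates type I collagen genes, Pigt (0.920) and Ttyh3 (0.918). Col11a1 (0.867) was 22nd and Col2a1 (0.847) 33rd in that order, whereas Col3a1 (-0.0188) was 5259th. Col3a1 was nearest to Htra2 (0.872), Ucp2 (0.865), Irf2bp2 (0.857), Pi4k2a (0.823) and Col5a2 (0.820), with Col5a1 (0.798) ninth. Exons of Htra2 overlap those of Loxl3. Col5a1 was nearest to Lrrc47 (0.864), Lrrc8d (0.854), Sharpin (0.846), Zfp777 (0.835) and Pigs (0.832). Col11a1 was nearest to Slc38a10 (0.946), Fgd1 (0.930), Sdc3 (0.930), Crtap (0.923), a partner of prolyl 3-hydroxylase, and Ncam1 (0.918), with Col1a2 (0.886) 15th. These r values share libraries and their depth.

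The remaining genes of fibrillar type, Col24a1 and Col27a1, were both higher in the knockout. Col24a1 was at 5.76 ± 1.28 CPM in the wild type libraries and rose to 18.3 ± 4.11 CPM (log2 fold change 1.67, SE 0.154, edgeR adjusted p = 3.10e-08) without overlap. Col27a1 was at 11.2 ± 1.87 CPM and rose to 18.4 ± 5.13 CPM (0.72, SE 0.159, edgeR adjusted p = 9.22e-04).

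Other genes of collagen biosynthesis were read against the median log2 fold change of all tested genes, 0.02. The lists had medians of 0.08 for folding and hydroxylation, -0.48 for cleavage and cross-linking, -0.11 for fibril surface proteins, -0.08 for breakdown and 0.10 for regulators. Beside the counts of these lists stand 25.6% of all tested genes higher and 22.7% lower in the knockout. With total counts 85.4% of all genes past the threshold were higher. Genes that fold, hydroxylate and export procollagen moved both ways. Of 22 tested, 8 were higher and 6 lower in the knockout, and with total counts 12 were higher and 3 lower. The largest increases were those of P4ha2 and P4ha3, subunits of prolyl 4-hydroxylase, and Plod2, which hydroxylates telopeptide lysines, at 4.29, 2.36 and 3.57 on the log2 scale. Exons of Plod2 overlap Gm38391. P3h2, a prolyl 3-hydroxylase, fell by 1.11, Fkbp14, a procollagen chaperone whose exons overlap Plekha8, by 1.00 and P4ha1, another subunit of prolyl 4-hydroxylase, by 0.80.

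Of 12 tested genes that trim procollagen and cross-link fibrils, 9 fell and 1 rose, or 5 and 2 with total counts. Adamts2, the main procollagen N-proteinase of types I to III, fell to 512 ± 81.5 CPM against 1287 ± 316 (log2 fold change -1.33, SE 0.153, edgeR adjusted p = 5.66e-07), and its relative Adamts3 from 89.8 ± 14.9 to 40.2 ± 7.79 CPM (-1.16). Neither overlapped between the genotypes. Tll1, a C-proteinase of the BMP1 family, fell by 1.01. Loxl1, a lysyl oxidase, was the exception and rose by 0.98, without overlap.

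Proteins on the fibril surface moved in both directions, 4 of 13 higher and 5 lower, or 6 and 3 with total counts. Fmod, which binds type I collagen and controls fibril maturation, fell to 6522 ± 806 CPM against 15908 ± 2793 (log2 fold change -1.29, SE 0.123, edgeR adjusted p = 5.06e-08). Kera fell by 2.18 and Tnxb by 0.66. Bgn rose by 1.11, Fn1, on which collagen fibrils are laid down, by 1.57 and Aspn by 1.96, although exons of Aspn overlap Cenpp. Only Tnxb of these 6 overlapped between the genotypes, while 19.4% of all tested genes were without overlap. The 6 were named for the largest changes past the threshold, so their separation does not describe the list.

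Collagen breakdown genes split evenly, 3 of 10 tested higher and 3 lower, or 5 and 3 with total counts. Mmp13, a collagenase that cuts fibrillar collagen, rose to 7.55 ± 5.02 CPM against 0.293 ± 0.180 (log2 fold change 4.596, SE 0.540, edgeR adjusted p = 1.80e-06). Mmp14, a membrane-bound collagenase, rose by 1.054 and Timp1, an inhibitor of such proteases, by 1.65. Timp2, another inhibitor, fell by 1.17, Ddr2, a receptor for fibrillar collagen, by 0.80 and Ctsk by 0.71. Mmp1a, Mmp8 and Mmp9 were too low to test.

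Regulators of fibrillar collagen genes were higher for 5 and lower for 5 of 21 tested, or 11 and 1 with total counts, so their balance depends on the scaling. With TMM these counts were near the shares of all tested genes (25.6% higher and 22.7% lower). Sox9, which activates Col2a1 and Col11a2, rose from 3.26 ± 1.10 to 16.7 ± 3.38 CPM. The part of Sox9 and of the other regulators in the results for the chains was not tested. Runx2 rose by 1.61 and Egr2, a transcription factor linked to tendon collagen, by 1.27. Mkx, a tendon transcription factor that supports Col1a1 and Col1a2, fell by 0.78 without overlap. Tgfbr2 and Tgfb2, of the TGF-beta pathway, fell by 0.33 and 0.41, and with total counts they stood at -0.02 and -0.10 and did not pass.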

How the data were processed

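The deposited files hold raw counts per Ensembl gene, 1 column per library, per the file headers, and 25614 of 25719 identifiers matched a symbol. The submitters' processing notes name kallisto, featureCounts and GRCm39, without versions or roles; whether counting used strand is not given in the sources used here. Library groups follow the titles. Genes were tested with edgeR 4.0.16 in R 4.3.3 (quasi-likelihood, robust, TMM, default filter on genotype), two-sided, with Benjamini-Hochberg adjustment over 14803 genes and a threshold of 0.05. Tested genes held at least 99.72% of each library's counts. SE is the fold change divided by the root of its F statistic. Log2 CPM used a prior count of 2. Ratios added 0.5 to each count and were tested over all 12870 assignments of libraries. The fit and the permutation test were checked on simulated data.

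Members and lists were chosen with earlier results of these data known. Of each list, up to 3 genes with the largest increase and decrease past the threshold were named, and for 4 chains the 5 most similar genes with a mean log2 CPM of at least 3. The planned source of gene lengths was not at hand, so transcript lengths come from GENCODE M21 (GRCm38), a choice made after the files were seen. No start or end of a counted gene is given, since the builds differ. Exon overlaps are those in that annotation. Alternatives were DESeq2 1.42.0 size factors and its Wald test, total counts, TMM without the 20 most abundant genes, 2 other filters, limma 3.58.1 voom with quality weights, the replicate number as a block, a muscle score or Y-linked level as covariate, other pseudocounts, and libraries left out. No 2 libraries were repeats of each other: the most similar pair had a chi-square of 6.56 per degree of freedom.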

Additional observations from a re-analysis of the deposited data

Results flagged for a closer look

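Of 36 groups of 8 libraries checked (9 genes and 9 ratios in each genotype), 5 had a lowest or highest library that stood apart from the rest by more than the 95% limit of Dixon's test, where chance gives about 1 in 20 groups, or 1.80. Wild type library 3 was the lowest in 4 of them. Its log2 CPM was 16 for Col1a1 (next lowest 16.92), 15.51 for Col1a2 (next 16.42) and 4.42 for Col2a1 (next 6.33), and its log2 count ratio of Col2a1 to Col11a2 was -5.21 (next -4.08). Wild type library 7 had the highest log2 count ratio of Col5a1 to Col5a2, 0.58 (next 0.07). These checks share libraries and genes, so they are not independent.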

How the results depend on the processing

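Of 540 recomputed values, 525 were classed as the same. For fold changes, ratios and correlations, this means that direction and side of the threshold were kept. Every value for the 3 higher and 3 lower chains and the 9 ratios did so. The 540 also include counts of genes, chains and pairs past the threshold. Such counts have no direction and were all classed as the same, although they varied. The count of genes past the threshold ran from 6101 to 9685. Scaled to total counts, 9685 genes passed and 85.4% of these were higher (53.0% with TMM), and the median of all genes moved to 0.32. On that scale Col11a1 changed sign, to 0.051 (adjusted p = 0.733), as did r in the wild type for Col1a1 and Col3a1 (-0.349) and for Col11a1 and Col5a1 (-0.185), none past the threshold. The number of chains past the threshold lay between 6 and 9. Col5a3 passed in 8 of 28 settings, with log2 fold changes from -1.08 to -0.30. Leaving out wild type replicate 3 brought Col2a1, Col5a3 and Col11a1 past the threshold; no other single library changed a chain other than Col5a3, for which knockout 7 or 8 or wild type 8 did.

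Same-numbered libraries did not pair: their deviations correlated between -0.397 and 0.394, above 0.1 in 3 of 8 pairs, and 1 of 8 knockout libraries was closest to its own number. With the replicate block 7010 genes and 6 chains passed, and the block changed no call of a chain or ratio. For ratios the block was an exact sign-flip test over the 8 pairs. Its adjusted p was 0.0352 for Col5a3 to Col5a1 and 0.0100 for 7 ratios. These 7 all stood at the smallest p that 8 pairs can give, so that value is a limit of the test. Leaving out knockout 5, 6 and 8 and wild type 8, or knockout 6, 7 and 8 and wild type 5, was chosen after seeing the data and left 6 and 7 chains past the threshold. Depth did not limit the 9 chains.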
